A study of Mus musculus with 2 samples.

Results

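The genes described here encode the nuclear subunits of oxidative phosphorylation, the enzymes of the inner mitochondrial membrane that pass electrons from NADH and succinate to oxygen and use the resulting proton gradient to make ATP. Members were picked by a rule on gene symbols, which was set with earlier results of these data known. They are the probe sets (sets of short oligonucleotides that together read 1 transcript) whose platform annotation gives exactly 1 gene symbol, that symbol starting with Ndufa, Ndufb, Ndufc, Ndufs, Ndufv, Uqcr, Atp5 or Cox4 to Cox8, or being Sdha, Sdhb, Sdhc, Sdhd, Cyc1 or Cycs. The rule found 160 probe sets of 86 genes, out of 22626 non-control probe sets and 12393 genes with a single-symbol probe set. It also takes in 5 Ndufaf genes, which encode assembly factors of complex I and not subunits, and these are kept apart below.

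The study compared colon of mice carrying an interleukin-9 (IL-9) transgene with wild-type colon; IL-9 is a signalling protein of T cells and other lymphocytes. A piece of distal colon was taken, and RNA of 4 mice was pooled for each genotype before hybridisation to 1 Affymetrix array, so there are 2 arrays in all. The labels name the wild-type strain FVB, while the design text writes TVB. Both groups were bred free of specific pathogens, and the transgenic array is titled Tg5. The strain that carries the transgene, the promoter that drives it, and the age and sex of the mice are not given in the sources used here. Il9 had an intensity of 5.14 in the wild-type pool and 862 in the transgenic pool, which checks the labels.

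Complex I (NADH dehydrogenase) takes electrons from NADH, complex II (succinate dehydrogenase) from succinate, and both hand them to ubiquinone. Complex III passes them to cytochrome c, complex IV (cytochrome c oxidase) passes them to oxygen, and complex V (ATP synthase) turns the proton gradient into ATP. Colonocytes are known for burning butyrate from bacterial fermentation in their mitochondria, and smooth muscle and immune cells of the colon wall also hold these enzymes. In whole tissue, fewer cells of a type and less RNA per cell cannot be told apart.

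Nuclear genes for these subunits are known to be controlled by a small group of transcription factors, among them NRF1, the ETS-family factor GABP and YY1, and some complex IV subunits exist as a common isoform and an isoform restricted to certain tissues. Promoter windows of 7 members are shown because they hold such isoform sets: the common and restricted genes of complex IV subunits 8 and 6b, and the 3 genes for the c subunit of ATP synthase. Each window runs from 250 bases before to 50 bases after the RefSeq transcription start, is taken from RefSeq on GRCm38.p6, and is written 5′ to 3′ on the strand of the gene. Capitals mark exact matches, on either strand, to 6 motifs: NRF1 as GCATGCG, ETS as CCGGAAG, YY1 as AAGATGG, the CCAAT box as CCAAT, Sp1 as GGGCGG and the TATA box as TATAAA. Cox8a lies at chr19:7217567-7217866, Cox8b at chr7:140900397-140900696, Cox6b1 at chr7:30626065-30626364 and Cox6b2 at chr7:4753045-4753344. Atp5g1 lies at chr11:96075582-96075881, Atp5g2 at chr15:102670998-102671297 and Atp5g3 at chr2:73911277-73911576. All 7 are on the minus strand.
Cox8a: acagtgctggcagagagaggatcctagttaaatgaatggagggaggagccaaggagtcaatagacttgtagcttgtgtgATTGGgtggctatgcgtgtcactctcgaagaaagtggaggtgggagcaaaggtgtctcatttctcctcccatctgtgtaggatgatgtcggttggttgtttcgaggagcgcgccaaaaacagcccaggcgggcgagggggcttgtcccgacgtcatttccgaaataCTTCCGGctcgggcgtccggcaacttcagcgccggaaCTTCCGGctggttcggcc
Cox8b: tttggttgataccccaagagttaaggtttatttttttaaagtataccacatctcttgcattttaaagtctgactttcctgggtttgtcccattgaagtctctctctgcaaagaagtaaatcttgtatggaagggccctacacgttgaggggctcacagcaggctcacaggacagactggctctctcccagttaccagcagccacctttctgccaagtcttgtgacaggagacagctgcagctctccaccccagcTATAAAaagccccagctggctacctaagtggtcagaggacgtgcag
Cox6b1: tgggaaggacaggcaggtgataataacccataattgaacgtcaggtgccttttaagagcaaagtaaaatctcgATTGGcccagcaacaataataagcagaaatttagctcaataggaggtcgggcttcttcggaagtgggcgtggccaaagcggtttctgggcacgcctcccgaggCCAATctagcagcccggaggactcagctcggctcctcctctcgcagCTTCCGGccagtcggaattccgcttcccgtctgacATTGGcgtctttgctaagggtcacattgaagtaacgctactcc
Cox6b2: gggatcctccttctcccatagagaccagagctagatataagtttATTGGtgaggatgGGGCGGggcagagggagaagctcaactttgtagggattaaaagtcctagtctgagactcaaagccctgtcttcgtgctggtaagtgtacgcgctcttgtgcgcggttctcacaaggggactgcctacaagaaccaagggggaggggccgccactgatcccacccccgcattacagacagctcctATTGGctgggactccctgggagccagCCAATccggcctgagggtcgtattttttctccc
Atp5g1: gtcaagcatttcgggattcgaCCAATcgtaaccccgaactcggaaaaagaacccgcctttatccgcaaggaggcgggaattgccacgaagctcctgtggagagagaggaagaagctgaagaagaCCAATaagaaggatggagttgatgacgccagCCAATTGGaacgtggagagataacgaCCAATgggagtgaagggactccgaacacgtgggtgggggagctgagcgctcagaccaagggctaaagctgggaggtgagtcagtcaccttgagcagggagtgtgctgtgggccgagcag
Atp5g2: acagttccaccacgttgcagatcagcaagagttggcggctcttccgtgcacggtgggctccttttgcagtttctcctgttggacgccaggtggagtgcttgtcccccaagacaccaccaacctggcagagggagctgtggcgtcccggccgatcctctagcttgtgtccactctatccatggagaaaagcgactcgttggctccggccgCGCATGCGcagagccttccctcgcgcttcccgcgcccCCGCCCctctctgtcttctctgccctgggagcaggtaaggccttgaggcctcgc
Atp5g3: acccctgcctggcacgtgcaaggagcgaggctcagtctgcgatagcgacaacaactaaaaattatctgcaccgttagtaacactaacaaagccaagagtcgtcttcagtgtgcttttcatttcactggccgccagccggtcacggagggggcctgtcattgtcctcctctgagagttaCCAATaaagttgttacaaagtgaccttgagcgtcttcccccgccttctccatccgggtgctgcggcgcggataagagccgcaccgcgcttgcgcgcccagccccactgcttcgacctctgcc
Both common complex IV genes hold the ETS motif on the opposite strand, Cox8a at positions −5 and 33 and Cox6b1 at position −28 from the transcription start, and neither restricted gene has a match to it. Cox8b has the TATA box at position 5. Atp5g2 has NRF1 matches at positions −41 and −40, overlapping on opposite strands, whereas Atp5g1 and Atp5g3 have none with these letters. Atp5g3 had a match to a longer NRF1 spelling tried earlier, so that spelling also differed in its letters. The NRF1 difference between Atp5g2 and Atp5g3 thus depends on the spelling searched. Atp5g1 has CCAAT boxes at positions −229, −126, −95, −92 and −69, the pair at −95 and −92 overlapping on opposite strands. A match is a description of the letters and not a shown binding site.

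The promoter table held windows for 71 of the 86 member genes, 76 windows in all. The NRF1 motif was found in 17.1% of them (13 windows), against 4.44% of 21262 windows of protein-coding genes. The ETS motif was in 23.7% of member windows (18) and 11.6% of protein-coding windows, and the YY1 motif in 13.2% (10) and 6.24%. At least 1 of these 3 motifs was present in 44.7% of member windows and in 20.3% of protein-coding windows. The CCAAT box (39.5% against 38.2%), Sp1 (43.4% against 46.2%) and the TATA box (10.5% against 12.6%) were found in much the same share of both. A window was counted once for a motif however often it matched, and overlapping matches were allowed. The letters were chosen with these windows in view. Those for NRF1 and YY1 were replaced by shorter ones after the shares with longer spellings had been seen. For NRF1 the letters themselves also changed. With the first or the last letter dropped, NRF1 was in 22.4% or 19.7% of member windows, against 7.57% or 8.18% of protein-coding windows. ETS was in 46.1% or 36.8%, against 21.1% or 18.7%. YY1 was in 23.7% or 17.1%, against 16.8% or 15.8%, so its difference depends on the letters searched. The median GC content was 58.8% in member windows and 56.3% in protein-coding windows.

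**Figure D1:**
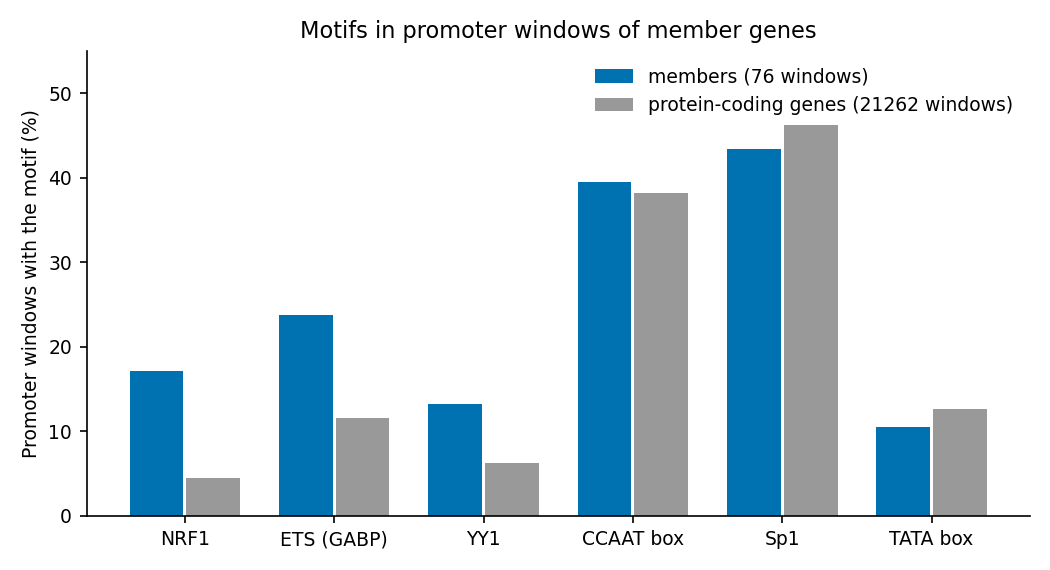
Share of promoter windows (%, vertical axis) that hold each of 6 motifs on either strand, for member genes (blue, 76 windows) and for all protein-coding genes (grey, 21262 windows). The blue bars for NRF1, ETS and YY1 are taller than the grey ones (17.1% against 4.44%, 23.7% against 11.6% and 13.2% against 6.24%), while the other 3 pairs are close.

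The deposited intensities of the subunit genes were nearly the same in the 2 pools. Of the 86 genes, 83 exceeded the floor of 19.8 on both arrays, and 3 were below it on both. Lower intensities were raised to the floor before ratios were taken. Genes below the floor in both pools were left out of the comparison, and all others are called measured. Measured genes outside the members can thus have 1 pool set to the floor value. Log2 ratios, given throughout as transgenic over wild type, ran from −0.46 to 0.64 over the 83 genes, with a median of 0.06, beside a median of 0.04 over all 8346 measured genes, whose middle 95% ran from −0.61 to 0.70. No member reached 2-fold in either direction (0 of 83 each way), where the background is 0.767% of measured genes higher and 0.611% lower. With 1 array per genotype there is no spread between samples, so no test was possible and no p-value is given.

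A smaller limit was used to describe the members, a log2 ratio of 0.3 in size, which is 1.23-fold. By it 5 members were higher and 3 lower in the transgenic pool, out of 83, beside a background of 16.4% of measured genes higher and 12.3% lower. Thus 90.4% of the members and 71.2% of all measured genes lay within the limit. The members are read by brighter probe sets than most genes, with a median intensity of 888 against 93.5, and low intensities give less steady ratios. Among genes with a mean intensity of at least 500, a limit chosen with the data in view, 95.4% of 65 members and 85.4% of 794 genes lay within a log2 ratio of 0.3. In that range 3 members were at least 0.3 higher and 0 lower, beside a background of 7.93% and 6.68%. The SD of the log2 ratio over these 65 members was 0.13.

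Small positive ratios were more frequent than negative ones. Of the 83 genes 55 had a log2 ratio above 0 and 28 below, against a background of 56.0% above 0. At intensities of at least 500, 46 of 65 members were above 0, against 53.5% of all genes in that range. The excess was smaller with the mean of all probe sets of each gene, where 49 of 83 were above 0, against 54.6%. In that setting the median log2 ratio was 0.028 over the members and 0.028 over all measured genes. The summed intensity of the members was 1.04 times as high in the transgenic pool, and that of all measured genes 1.01 times.

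**Figure D2:**
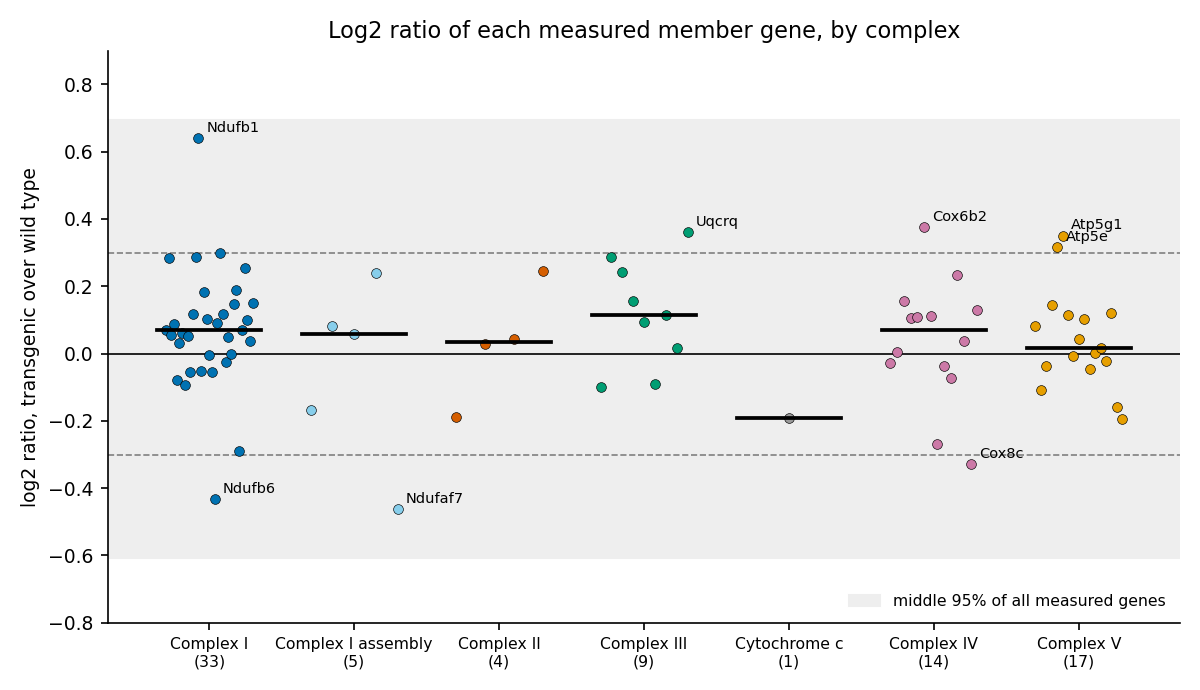
Log2 ratio of transgenic over wild-type intensity (vertical axis) of the 83 member genes above the floor on both arrays, grouped by complex with the number of genes in brackets. Points are genes, black bars group medians, dashed lines a log2 ratio of 0.3 in size and the grey band the middle 95% of all measured genes. The 8 named genes lie past the dashed lines, and 1 of the 83, Ndufb1 at 0.64, lies just inside the edge of the band.

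Complex I was represented by 33 subunit genes, all above the floor, with a median log2 ratio of 0.07. The core subunits, which carry the flavin and iron-sulfur clusters that move electrons, ran from −0.001 to 0.25 over 6 genes. Ndufv1, whose protein binds NADH and the flavin, was at 573 in the wild-type pool and 613 in the transgenic pool, a log2 ratio of 0.10. Ndufs1, an iron-sulfur subunit, was at 394 on each array. Ndufs3 and Ndufs7, subunits near the ubiquinone site, had log2 ratios of 0.15 and 0.07, and Ndufv2, another iron-sulfur subunit, 0.04. The highest core value was that of Ndufs8, an iron-sulfur subunit of the same arm, at 956 and 1141. No core subunit passed 0.3.

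The 27 accessory subunits of complex I surround this core and are needed for its assembly and stability. Their median log2 ratio was 0.06, and 25 of 27 lay within 0.3. Ndufb1, a small subunit of the membrane arm, had the highest value of all members, at 32.1 in the wild-type pool and 50.1 in the transgenic pool, a log2 ratio of 0.64 from its 1 probe set and at a low intensity. Ndufb6, also of the membrane arm, had the lowest value of the complex, at 495 and 367, a log2 ratio of −0.43. Its other probe set was at 442 and 414, a log2 ratio of −0.09, so the size of the Ndufb6 difference depends on which probe set is read.

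Other accessory subunits stopped short of the limit. Ndufb8 was at 802 and 986, a log2 ratio of 0.30 that falls just inside it before rounding. Ndufab1, which is also the mitochondrial acyl carrier protein, was at 554 and 676, with a log2 ratio of 0.29. Ndufa10 was at 622 and 759, likewise 0.29. By these probe sets all 3 were higher in the transgenic pool. A second, dim probe set of Ndufab1 was at 68.8 and 69.4 (0.01). Another, left out by the rule because it also carries a pseudogene symbol, was at 356 and 326 (−0.13), the opposite way. Ndufs5 was lower, at 56.4 and 46.1, a log2 ratio of −0.29. A further Ndufs5 probe set, left out by the rule because it also matches a pseudogene, was at 366 and 388, a log2 ratio of 0.08, so the 2 readings of this gene go opposite ways. Ndufa1, an X-linked subunit and the brightest reading in complex I, was at 1513 and 1587 (log2 ratio 0.07), and the other X-linked member, Ndufb11, at 1102 and 1251 (0.18).

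The 5 assembly factor genes, whose proteins help build complex I without staying in it, were read at low intensities. Ndufaf7, a methyltransferase that modifies a core subunit, was at 77.0 in the wild-type pool and 55.9 in the transgenic pool, a log2 ratio of −0.46 and the lowest of all members. Ndufaf5, which hydroxylates a core subunit, was at 37.0 and 43.6, a log2 ratio of 0.24. Ndufaf1 was at 42.1 and 37.5, with −0.17. The group thus went both ways, around a median of 0.06, and the remaining pair differed little. Ndufaf3, the brightest reading of the group, was at 112 and 118 (0.08), and Ndufaf4 at 106 and 111 (0.06).

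The rule left out 8 probe sets because they carry several symbols, among them those for Ndufa11, Ndufb4 and Ndufs6, which have no single-symbol probe set here. Of these 8, 6 exceeded the floor on both arrays, with log2 ratios from −0.13 to 0.13.

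Complex II has 4 subunits, all encoded in the nucleus, and their median log2 ratio was 0.03. Sdha, the flavoprotein that oxidises succinate, was at 995 in the wild-type pool and 874 in the transgenic pool, a log2 ratio of −0.19, while its second probe set was at 503 and 506 (0.01). Sdhb, the iron-sulfur subunit, was at 1253 and 1277 (0.03). Sdhc, a membrane anchor, was at 562 and 579 (0.04), and its second probe set at 200 and 190 (−0.07). Sdhd, the other anchor, was at 751 and 890, a log2 ratio of 0.24. Its dim second probe set went the opposite way, at 72.4 and 26.9, a log2 ratio of −1.43, the one single-symbol member probe set past 2-fold. None of the 4 genes passed 0.3 by the brightest probe set, and neither Sdhc nor Sdhd had an agreed direction.

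Complex III had the highest median of the complexes with more than 1 member, 0.12 over 9 genes, of which 7 were above 0 and 1 passed 0.3. The values were carried by small accessory subunits. Uqcrq, a small membrane subunit, was at 571 in the wild-type pool and 733 in the transgenic pool, a log2 ratio of 0.36, and its 3 other probe sets were below the floor on both arrays. Uqcr10 was at 1195 and 1459, a log2 ratio of 0.29, and Uqcr11 at 558 and 660, with 0.24. A second, dim probe set of Uqcr10 was at 47.8 and 78.0, a log2 ratio of 0.71 in the same direction. The catalytic subunits went both ways: Uqcrfs1, the Rieske iron-sulfur protein, was at 971 and 1052 (0.12), and Cyc1, the cytochrome c1 heme protein, at 1107 and 1034 (−0.10).

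The remaining subunits of complex III included its large core proteins. Uqcrc1 was at 736 and 785 (0.09) and Uqcrc2 at 1399 and 1313 (−0.09), though the second probe set of Uqcrc2 had 0.19. Uqcrh, the hinge protein that helps cytochrome c dock, was at 1705 and 1725 (0.02). Uqcrb was at 3594 and 4006 (0.16), close to the top of the scale (highest values 4760 and 4753), where differences can be compressed, and its second probe set had −0.20. Readings of Uqcrb and Uqcrc2 therefore disagreed in sign between probe sets.

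Cytochrome c itself, the small heme protein that shuttles electrons between complexes III and IV, was read for its somatic gene Cycs by 3 probe sets. The brightest was at 1364 in the wild-type pool and 1194 in the transgenic pool, a log2 ratio of −0.19. The next was at 1091 and 1309, with 0.26, and the third at 498 and 467, with −0.09. The probe sets did not agree on a direction for Cycs.

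Complex IV had 17 member genes, of which 14 were measured, with a median log2 ratio of 0.07. The 10 common subunits, counting Ndufa4, which bears a complex I name but is now placed in complex IV, all lay within 0.3, from −0.04 to 0.23, and 8 of the 10 were above 0. Ndufa4 was at 581 and 636 (0.13). Cox4i1, a regulatory subunit, was at 2507 in the wild-type pool and 2460 in the transgenic pool (−0.03). Cox5a was at 2084 and 2092 (0.01) and Cox5b at 2307 and 2570 (0.16). Cox7a2 was at 2906 and 2834 (−0.04). Cox6c was at 2103 and 2272 (0.11), but its other probe set was at 955 and 692, a log2 ratio of −0.46. Cox7c, at 43.9 and 51.6 (0.23), was read at low intensity. Cox7a2l, which helps join complexes III and IV into supercomplexes, was at 743 and 706 (−0.07).

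The restricted isoforms of complex IV had intensities below 100 in both pools, some of them below the floor, with 1 exception. Cox4i2, the isoform known from lung, was at 17.1 in the wild-type pool and 8.62 in the transgenic pool. Cox6a2, of heart and skeletal muscle, was at 11.1 and 7.46. Cox8b, of the same tissues and brown fat, was at 4.06 and 4.27. Both pools thus lacked a reading above the floor for these 3. The testis isoforms Cox6b2, at 21.8 and 28.3, and Cox8c, at 39.5 and 31.4, exceeded the floor at low intensity. Their log2 ratios of 0.38 and −0.33 rest on 1 dim probe set each. Their common counterparts had smaller ratios, Cox6b1 at 2401 and 2590 (0.11) and Cox8a at 1178 and 1208 (0.04). Cox6a1, the common counterpart of Cox6a2, was at 2618 and 2818 (0.11), and its second probe set was at 1764 and 2176, a log2 ratio of 0.30.

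The exception was Cox7a1, the heart, skeletal muscle and brown fat isoform of subunit 7a, at 149 in the wild-type pool and 123 in the transgenic pool, a log2 ratio of −0.27. Of 12 skeletal muscle markers 10 were below the floor in both pools, and their summed level was 90.8 and 97.9. Ucp1 and Cidea, which mark brown fat, were below the floor on both arrays, while the 8 adipocyte markers on the array together summed to 1075 in wild type and 855 in transgenic colon. Car3, a carbonic anhydrase abundant in fat and muscle, was at 536 and 368, and Adipoq, the adipocyte hormone gene, at 87.7 and 87.9. The 13 smooth muscle markers summed to 15009 and 14226. The part of these tissues in the Cox7a1 reading was not tested.

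**Figure D3:**
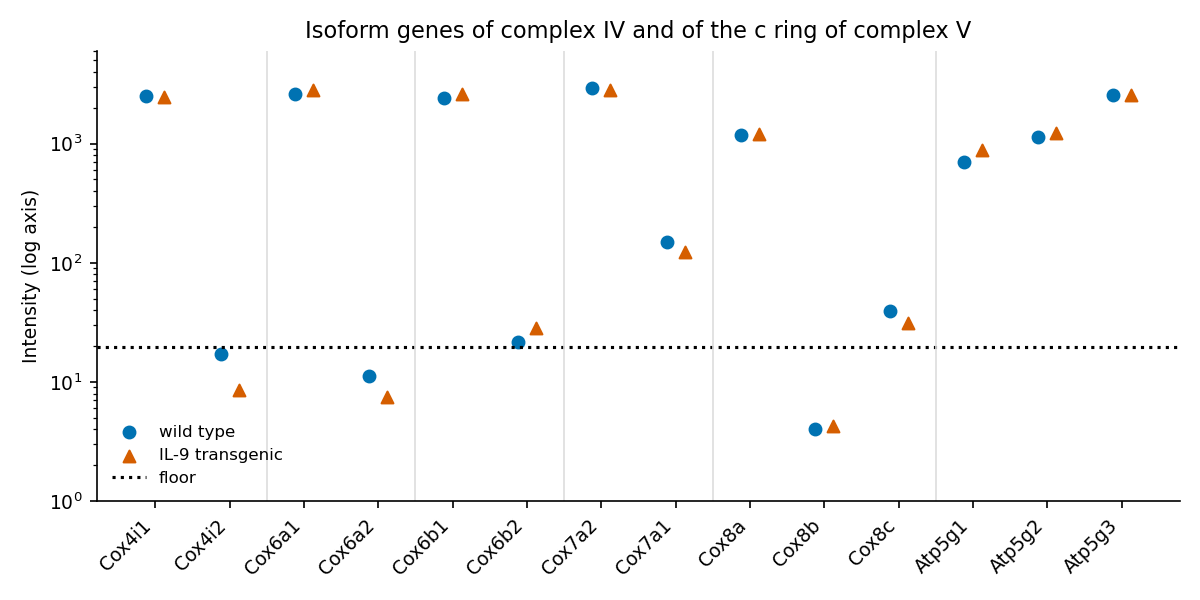
Intensity (log axis) of common and restricted isoform genes of complex IV and of the 3 c subunit genes of complex V in the wild-type (circles) and transgenic (triangles) pool, with the floor of 19.8 as a dotted line. Each gene is to be read against the floor and between pools, since probe sets of different genes are not on a common scale. Cox4i2, Cox6a2 and Cox8b lie below the floor in both pools, and Cox7a1 lies above it at 149 and 123.

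Complex V was represented by 17 genes, all measured, with a median log2 ratio of 0.02 that was −0.003 under loess scaling. The 5 genes of the F1 head, where ATP is made, ran from −0.11 to 0.32. Atp5a1 and Atp5b, the alpha and beta subunits, were at 1888 and 2000 (0.08) and at 2189 and 2030 (−0.11). Atp5e, the small epsilon subunit of the central stalk, was at 723 in the wild-type pool and 901 in the transgenic pool, a log2 ratio of 0.32, whereas Atp5c1, the gamma subunit of the same stalk, was at 2052 and 1998 (−0.04). Atp5d, the delta subunit, was at 1544 and 1706 (0.14).

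The c ring, the rotor in the membrane, is built from 1 mature protein that 3 genes encode. Atp5g1 was at 695 in the wild-type pool and 886 in the transgenic pool, a log2 ratio of 0.35 and the highest value of complex V. Atp5g2 was at 1125 and 1217 (0.11). Atp5g3 was at 2550 and 2536 (−0.01). The 3 genes for this single protein thus had different ratios. Their summed intensity was 1.06 times as high in the transgenic pool. Probe sets of different genes are not on a common scale, so the sum is not a total transcript level.

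The peripheral stalk, which holds the head still against the rotor, held the 2 lowest values of complex V. Its 4 genes had a median log2 ratio of −0.06. Atp5pb (subunit b) was at 1543 and 1349, a log2 ratio of −0.19, with its second probe set at −0.02. Atp5o (the subunit that confers oligomycin sensitivity) was at 1728 and 1549 (−0.16), with −0.52 for a dimmer second probe set at 310 and 216. Atp5h (subunit d) was at 1354 and 1397 (0.04), its second probe set at −0.30, and Atp5j (coupling factor 6) at 1065 and 1144 (0.10). Every probe set of Atp5pb and Atp5o was lower in the transgenic pool. The 5 small membrane subunits, which help ATP synthase pair into dimers, ran only from −0.04 to 0.12 (Atp5j2, Atp5k, Atp5l, Atp5md and Atp5mpl).

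**Figure D4:**
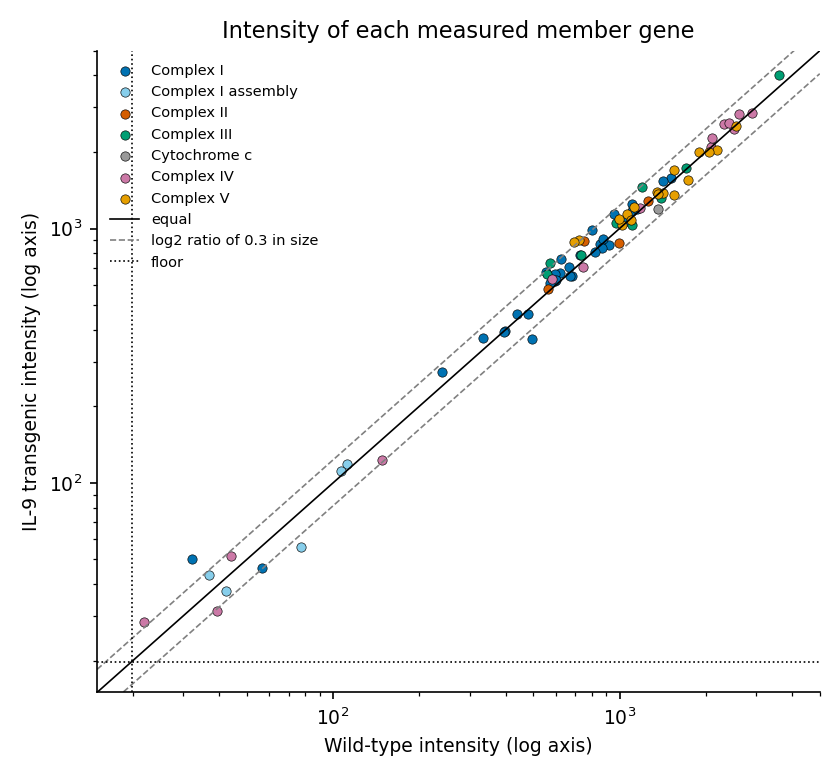
Intensity of the 83 measured member genes in the wild-type (horizontal) and transgenic (vertical) pool, both on log axes, coloured by complex. The solid line marks equal values, the dashed lines a log2 ratio of 0.3 in size and the dotted lines the floor of 19.8; 75 of the 83 genes lie between the dashed lines, and 4 of the 8 outside them have a mean intensity below 100.

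The 8 genes past 0.3 fell unevenly over the intensity scale. Of 8 measured members with a mean intensity below 100, 4 were past it (Ndufb1, Cox6b2, Cox8c and Ndufaf7), and of the other 75 members 4 were (Uqcrq, Atp5g1, Atp5e and Ndufb6). The 4 dim genes and Atp5g1, Atp5e and Uqcrq each rest on 1 probe set above the floor.

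Genes with several probe sets gave a technical yardstick. In 42 members read above the floor by at least 2 probe sets (104 in all) log2 ratios of the same gene differed with a pooled SD of 0.25, beside 0.28 over 2847 genes of the array. For 24 of the 42 the probe sets did not all have the same sign, beside 1487 of the 2847 genes of the array. With probe sets of at least 100 only, the pooled SD was 0.14 over 36 members and 0.24 over 1149 genes. Probe sets of a gene share the same 2 RNA pools, so this holds no spread between mice. For a single gene, a difference below these values cannot be told from probe set noise.

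The spread was widest in 4 genes whose probe sets differed by more than 0.5. These were Sdhd (1.67 apart), Ndufs8 (1.26), Cox6c (0.57) and Ndufs4 (0.52). For Ndufs8, 1 dim probe set of 6 was at 42.9 and 22.2, a log2 ratio of −0.95, while another was at 909 and 1124 (0.31). The brightest Ndufs4 probe set was at 240 and 273 (0.19), and its 2 dim ones had −0.33 and −0.28. Of 18 probe sets with a mean intensity below 100, 9 were past 0.3 and their SD was 0.52. Of 103 probe sets at 500 or above, 8 were past 0.3 and their SD was 0.15.

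**Figure D5:**
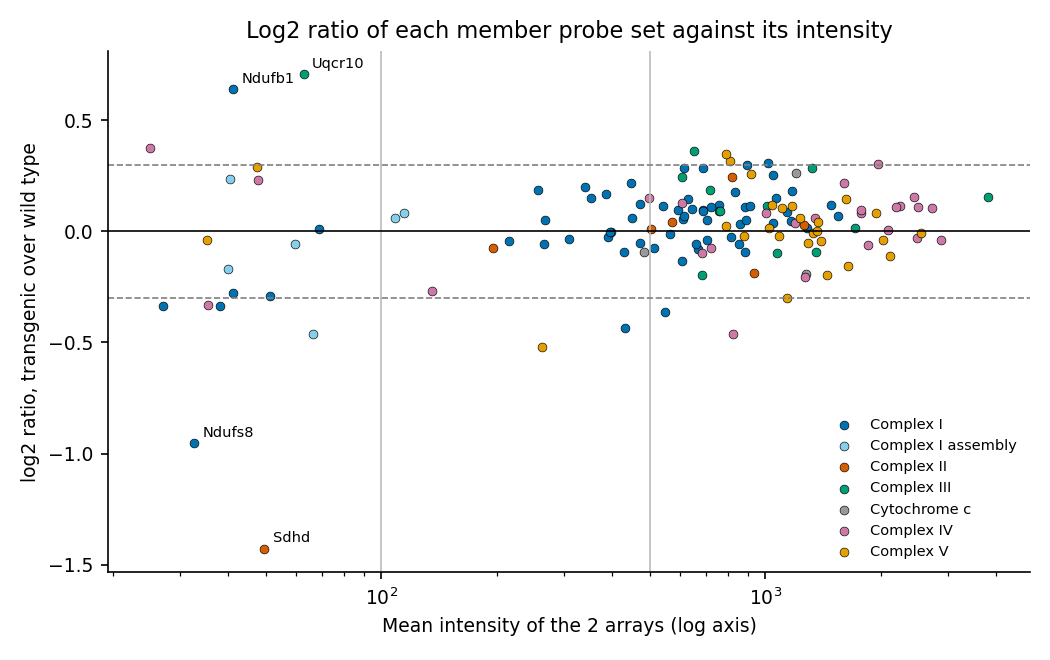
Log2 ratio, transgenic to wild-type intensity (vertical axis), against mean intensity on a log axis for the 145 member probe sets that exceeded the floor in both pools, coloured by complex. Dashed lines mark a log2 ratio of 0.3 in size and vertical lines intensities of 100 and 500. The points fan out to the left of 100 (SD 0.52), where Sdhd, Ndufs8, Uqcr10 and Ndufb1 are named, and form a narrow band at 500 and above (SD 0.15).

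Other genes of the pathway were read from lists set beside the members. Of 26 measured assembly factors for complexes I to V, 1 was at least 0.3 higher (Atpaf2, 0.33, which helps assemble the F1 head) and 3 were lower, with a median of 0.08, beside a background of 16.4% higher and 12.3% lower. Under loess scaling 5 of the 26 were at least 0.3 lower, beside a background of 13.4%. Acad9, needed for complex I assembly, was at 58.8 and 37.1 (−0.66), with a second probe set at −0.17. Tmem70, needed for ATP synthase assembly, was at 171 and 128 (−0.42). Cox15, which makes heme A for complex IV, was at 98.9 and 35.4 (−1.48) by its brightest probe set and had log2 ratios from −0.29 to 0.13 by its 3 others. Of the subunits encoded in mitochondrial DNA 1 had a single-symbol probe set, ND5 of complex I, at 4557 and 4043 (−0.17), near the top of the scale.

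Regulators of mitochondrial gene expression were more often lower than higher. Of 15 measured, 5 were at least 0.3 lower and 1 higher, with a median log2 ratio of −0.14, beside a background of 12.3% lower and 16.4% higher. The median stayed between −0.18 and −0.10 under the other settings. But when all probe sets of each gene were averaged 2 of the 15 were at least 0.3 lower, beside a background of 11.3%. Ppargc1a, the coactivator PGC-1α that raises mitochondrial gene expression, was at 142 in the wild-type pool and 100.3 in the transgenic pool, a log2 ratio of −0.50, and all 5 of its probe sets were lower, from −0.50 to −0.19. Tfb1m, which modifies mitochondrial ribosomal RNA, was at 59.6 and 41.0 (−0.54). Gabpa, the DNA-binding subunit of GABP, was at 97.0 and 70.7 (−0.46), with a second probe set at −0.05. Yy1 had −0.33 by its brightest probe set and 0.46 by another, and the 2 probe sets of Nrf1 above the floor had 0.37 and −0.35, so neither had an agreed direction.

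The members' own ratios differed little with and without the motifs of these factors. The median log2 ratio was 0.06 over 13 measured members with an NRF1 motif and 0.06 over 57 without. It was 0.07 over 18 members with the ETS motif and 0.06 over 52 without. For YY1 it was 0.09 over 10 and 0.06 over 60.

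Genes of the enzymes that feed the chain are given beside the background, 16.4% of measured genes at least 0.3 higher and 12.3% lower. At intensities of at least 500 the background is 7.93% and 6.68%. Of 15 measured genes of the tricarboxylic acid cycle and pyruvate dehydrogenase, 0 passed 0.3 in either direction, with a median of −0.02, and Cs, citrate synthase, was at 1176 and 1071 (−0.14). Of 11 measured carriers and electron-transfer genes 0 passed 0.3, with a median of −0.02. Slc25a5, which exchanges ADP for ATP, was at 3015 and 2975 (−0.02) by its brightest probe set. Its 8 probe sets above the floor were all lower in the transgenic pool, from −0.73 to −0.01. The median of the carrier list was 0.005 under quantile normalization and −0.18 when all probe sets of a gene were averaged. With that average 1 of the 11 was at least 0.3 lower, beside a background of 11.3%. Of 12 glycolysis genes 1 passed 0.3, Hk2, a hexokinase, at 158 and 243 (0.62), and the median was −0.01. Of 7 antioxidant genes Txnrd2, a thioredoxin reductase, was at 12.5 and 35.5, below the floor in wild type, and its second probe set, at 20.2 and 16.7, was below the floor in the transgenic pool. The list median was 0.11, and −0.04 when all probe sets of a gene were averaged, so it has no settled direction.

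Markers of several cell types differed between the pools by more than the members did. Mast cell markers (12 on the array) summed to 304 in wild type and 3425 in transgenic colon, with 5 of 10 measured at least 2-fold higher, beside a background of 0.767%. Most of the transgenic sum came from Mcpt1, at 4.96 and 1297, and Mcpt2, at 14.6 and 1472, both below the floor in wild type. Tpsab1, a mast cell tryptase, and Gata2, a transcription factor, went the other way, with log2 ratios of −0.30 and −0.18. B cell markers (8) summed to 247 and 1008, with 5 of 6 measured at least 2-fold higher. Ighm, at 62.6 and 570, made up most of the transgenic sum, and its 5 probe sets above the floor ran from 0.23 to 4.02. Pancreatic acinar markers (12) summed to 30217 in the wild-type pool and 1677 in the transgenic pool, with 12 of 12 at least 2-fold lower, beside a background of 0.611%. The 15 absorptive colonocyte markers summed to 16359 and 15905, with a median log2 ratio of −0.11. Of these, 5 were above 0 and 10 below. Smooth muscle markers had a median of −0.08. The defining markers of colon epithelium were present, with Slc26a3, the chloride exchanger, at 2296 and 1942 and Car1, carbonic anhydrase 1, at 1591 and 1326. Ceacam1, of the same list, went the other way, at 2475 and 2857, with its 8 probe sets from 0.11 to 0.35. The part of these differences in the subunit values was not tested.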

How the data were processed

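RNA of distal colon, pooled from 4 mice per genotype, was read on 1 Affymetrix array each, and the deposited table gives 1 linear intensity per probe set and array. The submitters' processing notes name MAS5 as the tool; its version and further steps are not given in the sources used here. MAS5 subtracts signal of mismatched probes, which makes low values unsteady. Depth does not apply to arrays, and their number (2) limits the precision.

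Probe sets were named from the platform annotation, single-symbol ones only (20380 of 22690, with 64 controls left out), and the brightest stood for its gene. For 18 members that probe set ends in _s_at or _x_at and can bind several transcripts. A floor of 19.8, the 40th percentile, replaced lower intensities, and log2 ratios of transgenic over wild type were taken with no further scaling. The limits were 0.3 and 2-fold. No test was run, since each genotype has 1 array.

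Both intensities were to be given for the brightest, 2 highest and 2 lowest genes of each complex, members past 0.3 or below the floor, isoform genes and genes with disagreeing probe sets, and for up to 3 genes per pathway list. Other members named, Atpaf2, Yy1, Nrf1, Tpsab1, Gata2 and the genes given as examples of a list fall outside this rule and were chosen after their values were seen. Members and lists were chosen with earlier results of these data known. The steps were tested on simulated arrays that held only changes past 2-fold, in genes that were not dim. Changes near 0.3 and changes in dim members were not covered. Alternatives were median, quantile and loess (span 0.3) scaling, floors at the 20th and 60th percentiles, no floor with a pseudocount of 0.73, the mean of all probe sets, and leaving out _s_at and _x_at probe sets. Python 3.11.15 with numpy 2.4.6, pandas 2.3.3, statsmodels 0.14.6 and matplotlib 3.10.9 was used.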

Additional observations from a re-analysis of the deposited data

How the results depend on the processing

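No member reached 2-fold in either direction under any of the 8 alternatives. The median log2 ratio of all members stayed between 0.03 and 0.08, while that of all measured genes lay between 0.02 and 0.04. With the mean of all probe sets both medians were 0.028. The count of members at least 0.3 higher, 5 as reported, was 9 under quantile normalization, beside 15.6% of all measured genes. It was 3 under the higher floor (60th percentile), beside 13.4%. When _s_at and _x_at probe sets were left out it was 3, beside 16.3%. The last 2 counts are over 77 measured members each. The count at least 0.3 lower, 3 as reported, was 5 of 85 under the lower floor (20th percentile), beside 18.8% of all measured genes. With no floor it was 5 of 86, beside 22.5%. The median for cytochrome c, which is the value of Cycs alone, was −0.0074 with the mean of all probe sets in place of −0.19. The same setting gave −0.59 for Sdhd in place of 0.24 and −0.26 for Ndufb6 in place of −0.43, and a median of −0.05 in place of 0.03 for complex II. Atp5e fell below 0.3 under loess (0.297). The other medians by complex moved by less than 0.1. Of the lists whose medians are given, 2 moved by more: carriers and electron transfer, −0.02 as reported, had −0.18 with the mean of all probe sets and −0.13 without _s_at and _x_at probe sets, and the antioxidant list, 0.11 as reported, had −0.04 with the mean of all probe sets. No paired analysis was possible because each genotype has 1 array, and for the same reason no replicate could be left out. Probe sets under about 100 limit what can be said of single dim members. Motif shares with 1 letter dropped were added after seeing the data and are given with the motifs; the YY1 difference was smallest without its last letter.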
